A study of Homo sapiens with 6 samples.

Results

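The chromatin sites bound by a PRMT5 antibody in LNCaP cells are described here as a list of 980 peaks. LNCaP is an androgen-responsive human prostate cancer line. The members are all entries on chromosomes 1 to 22, X and Y of the LNCaP PRMT5 peak list, 980 of its 1084 entries, and they make up part of the 10267 such peaks in the 4 lists of the series. The series profiled PRMT5 and METTL3 in LNCaP and in PC3, an androgen-independent prostate cancer line, with an in-situ chromatin assay in which the antibody brings a Tn5 transposase to the chromatin it binds in opened cells. All 6 groups were untreated cultures as far as the labels say, with 100000 cells and 16 PCR cycles per library and 1 library per group: METTL3, PRMT5 and control in each line. The PRMT5 antibody came from Active Motif in both lines. The LNCaP control library is titled IgG, and its antibody field names a secondary antibody. Both PRMT5 lists were called against the control of their own line, and the LNCaP METTL3 list shares its control with the LNCaP PRMT5 list. With 1 library on each side there was no spread between replicates, so no difference was tested. Values are given as counts and shares with exact 95% binomial (Clopper-Pearson) intervals, which cover counting error only. The read depth is unknown. A peak list holds no expression values, so the labelled line could not be checked against marker genes.

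PRMT5 is the main enzyme that places symmetric dimethyl marks on arginines of histones and of splicing proteins, and it works in a complex with WDR77. It is not known for recognising a DNA sequence of its own and reaches chromatin with partner proteins. The lysosome is the acidic compartment that degrades macromolecules and, through the Rag GTPases and the Ragulator complex on its surface, reports amino acid supply to the growth kinase complex mTORC1. Promoters of many lysosomal genes carry an E-box, the palindrome CACGTG, often with a T before it on both strands (TCACGTGA), which is the core of the motif known as CLEAR. E-boxes are read by basic helix-loop-helix factors, among them MYC with MAX, USF1 and USF2, CLOCK with BMAL1, and the MiT/TFE family, whose member TFEB is known for its control of lysosomal genes. No such factor was profiled here.

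Promoters of lysosomal genes with a LNCaP PRMT5 peak often carried this element. Shown first are the 8 genes of the lysosome and endosome lists with the highest fold over control among those whose summit fell inside the promoter window, which runs from 250 bases before to 50 after the gene start. Each line gives 60 of the 250 bases upstream of the start, read 5′ to 3′ on the gene's own strand, with CACGTG in capitals. Each stretch, here and in the contrast further below, was placed to take in a box, at differing distances from the start. Sequences and gene starts are from RefSeq, build GRCh38.p14. Positions are chr9:114587684-114587743 on the plus strand for ATP6V1G1, and chr16:88857089-88857148 on the minus strand for GALNS. Next come chr11:72103430-72103489 on the minus strand for LAMTOR1, and chr1:11806131-11806190 on the plus strand for CLCN6. These are followed by chr16:67481184-67481243 on the minus strand for ATP6V0D1, and chr19:7522564-7522623 on the plus strand for MCOLN1. The remaining positions are chr10:45727149-45727208 on the plus strand for WASHC2C, and chr1:38859852-38859911 on the minus strand for RRAGC.
ATP6V1G1: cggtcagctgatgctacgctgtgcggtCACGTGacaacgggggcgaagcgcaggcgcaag
GALNS: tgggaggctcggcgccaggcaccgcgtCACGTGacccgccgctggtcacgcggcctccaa
LAMTOR1: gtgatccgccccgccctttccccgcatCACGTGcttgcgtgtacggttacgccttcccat
CLCN6: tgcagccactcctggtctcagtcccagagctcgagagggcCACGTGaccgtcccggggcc
ATP6V0D1: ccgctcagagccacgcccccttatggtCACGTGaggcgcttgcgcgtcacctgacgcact
MCOLN1: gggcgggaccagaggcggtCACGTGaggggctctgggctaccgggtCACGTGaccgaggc
WASHC2C: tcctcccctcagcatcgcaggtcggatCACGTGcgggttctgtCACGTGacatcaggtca
RRAGC: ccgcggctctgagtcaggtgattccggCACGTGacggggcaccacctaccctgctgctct

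The base before and the base after the capitals differ among these promoters. ATP6V1G1, GALNS and ATP6V0D1 had T before the box on both strands, as did 1 or more of the boxes in the MCOLN1 and WASHC2C stretches. LAMTOR1, RRAGC and the CLCN6 box shown had it on 1 strand. The MCOLN1 and WASHC2C stretches each held 2 boxes. Reads at WASHC2C may be divided with WASHC2A, its near-identical copy.

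Peak folds at these promoters, as the authors' caller gave them, ran from 32.4 to 16.1. The fold was 32.4 at ATP6V1G1, which encodes part of the proton pump that acidifies the lysosome, with the summit at -88 bp. It was 29.8 at GALNS, a lysosomal sulfatase, in a peak shared with TRAPPC2L, whose product serves vesicle tethering and whose start lies head to head with that of GALNS. LAMTOR1, the membrane anchor of Ragulator, had a fold of 23.8. The value was 23.4 at CLCN6, a chloride and proton exchanger of late endosomes, and 18.4 at ATP6V0D1, another pump subunit. MCOLN1, the lysosomal calcium channel, had a fold of 17, WASHC2C, of the endosomal WASH complex, 16.6, and RRAGC, a Rag GTPase, 16.1. All of the 8 also lay under a PC3 PRMT5 peak, as did 43.8% of all LNCaP PRMT5 peaks at gene starts. The PC3 folds were 5.43, 10.8, 2.54, 7.33, 12.9, 4.03, 19 and 11.5 in the same order. WASHC2C was thus the 1 gene of the 8 with the higher fold in the PC3 list.

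Not every lysosomal promoter with the element carried a peak. Among the lysosome and endosome list genes, 22 had TCACGTGA in the promoter window, and 15 of these had a LNCaP PRMT5 peak within 1 kb of the start. The other 7 were ATG3, CHMP4A, MFSD1, NAGPA, PDCD6IP, SCPEP1 and TSC2, and 3 of them, picked after their values were seen, are shown for contrast. CHMP4A is an ESCRT subunit, SCPEP1 a lysosomal carboxypeptidase and TSC2 a brake on mTORC1. Positions are chr14:24213570-24213629 on the minus strand for CHMP4A, and chr17:56978071-56978130 on the plus strand for SCPEP1. Next come chr16:2047844-2047903 on the plus strand for TSC2.
CHMP4A: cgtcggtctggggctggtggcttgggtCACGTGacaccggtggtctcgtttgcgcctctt
SCPEP1: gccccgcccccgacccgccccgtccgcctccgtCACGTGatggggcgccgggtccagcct
TSC2: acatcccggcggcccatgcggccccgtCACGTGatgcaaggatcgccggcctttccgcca

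Across the whole list, folds ranged from 1.21 to 61.5 with a median of 6.56, and 157 peaks (16%) had a fold of at least 10. Peaks were narrow, with a median width of 182 bp and a range of 110 to 2472 bp. The largest q-value kept by the authors was 0.0486, and 42 peaks had a fold under 3.

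Gene starts held 210 of the 980 peaks, 21.4% (interval 18.9 to 24.1), counted as summits within 1 kb of the start of a protein-coding gene. That zone makes up 0.962% of the 3087 Mb spanned. Starts were used for 15842 of the 20037 protein-coding genes. Summits were not placed evenly around the start: 161 of the 210 lay upstream and 49 downstream, and 130 (61.9%) lay in the 300 bp before the start. The median position was -97 bp, with quartiles at -217 and -9.75 bp. In 100 bp bins the count rose to 58 in the last bin before the start and was 12 in the first bin after it. A further 58 peaks had their summit 3 kb or less from a boundary of a protein-coding gene without a listed start, where start and end cannot be told apart.

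**Figure D1:**
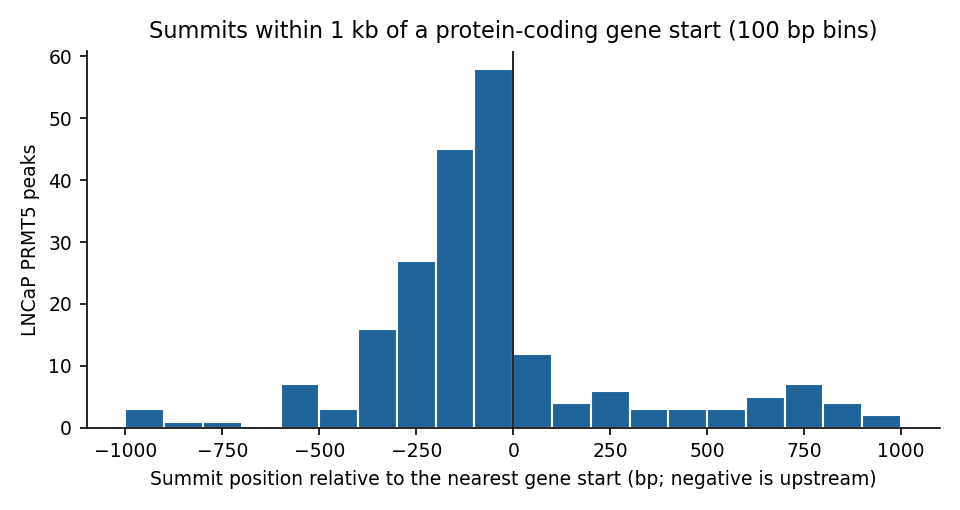
Number of LNCaP PRMT5 peaks (vertical axis) by summit position relative to the nearest protein-coding gene start in bp (horizontal axis, 100 bp bins, negative is upstream, vertical line at the start). The highest bar, 58 peaks, is the bin just upstream of the start, and 49 of the 210 summits lie downstream.

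Peaks of high fold were the ones most often at starts. Of the 50 highest peaks 26 were at a start, 52% (37.4 to 66.3). The share was 34% in ranks 51 to 100 and also in ranks 101 to 200, 22.7% in ranks 201 to 500 and 13.5% (10.6 to 16.9) in ranks 501 to 980. The median fold was 7.67 at starts, 6.43 inside genes and 6.14 between genes, and the ranges of the 3 compartments overlapped widely. A fold of at least 10 was reached by 30.5% of start peaks, 11.1% of peaks inside genes and 12.9% of those between genes.

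Among the 25 highest start peaks, with folds from 61.5 to 16.1, 8 lay at a gene of the lysosome and endosome lists. The highest of all, 61.5, was at GTPBP6, a GTPase gene of the pseudoautosomal region. Others outside those lists included SLC33A1, an acetyl-CoA transporter of the endoplasmic reticulum (29.7), KAT5, a histone acetyltransferase (26.4), DVL2, a transducer of Wnt signals (26), and NAPA, which recycles SNARE proteins after membrane fusion (25.3). A peak of fold 21.8 lay between the heads of MORC2 and TUG1, and BAX, the pore-forming apoptosis protein, had 21.2. RMND1, needed for mitochondrial translation, had 20.2, MARCHF8, a ubiquitin ligase for membrane receptors, 17.9, and SGTA, a co-chaperone, 17.7. PLD3, an exonuclease of the lysosome that was not on the lists, shared a peak of fold 17.3 with C19orf47. GNB2, a G protein subunit, had 17.2, RIMOC1 17.1, and PHC2, a Polycomb subunit, 17. RBM15, an adaptor of the complex that writes N6-methyladenosine on RNA, had 16.6, CUTA 16.5 and UBAP2L, with its head-to-head neighbour LTAP1, 16.4. Of the 25 peaks 20 overlapped a PC3 PRMT5 peak, beside 43.8% of all 210 start peaks. A LNCaP METTL3 peak overlapped 0 of the 25, beside 1 of the 210 (0.476%). In 22 of the 25 a gene at the peak had CACGTG in its promoter window. At SLC33A1, SGTA and GNB2, whose windows did not hold it, the summit lay upstream of the window, so the sequence at the summit was not searched. Each of these peaks reached into the window, and that part held no CACGTG.

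The E-box was the motif that set the peak-bearing promoters apart by the most percentage points among the 11 motifs counted. A summit fell inside the promoter window of 145 of 15842 protein-coding genes (0.915%). Of these 145 windows 118 held CACGTG, 81.4% (74.1 to 87.4), against 8.88% of all windows. TCACGTGA, which includes CACGTG, was in 40% (32 to 48.5) against 1.43%. Neighbouring genes can share a peak and much of a window, as head-to-head pairs do. The motif is a description of these windows and not a binding site shown by the data.

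Other promoter elements differed less. GGGCGG, the GC box, was in 84.1% of peak-bearing windows against 58.5% of all windows, and CCAAT, the NF-Y box, in 53.8% against 36.4%. CCGGAAG, the ETS motif, was in 20.7% (14.4 to 28.2) against 14.2%. TATAAA, the TATA box, was the rarer one, in 1.38% (0.167 to 4.89) against 9.63%. AGAACA, the steroid receptor half-site, was in 6.21% (2.88 to 11.5) against 11.2%. TGACGTCA (the cyclic AMP element), TGACTCA (AP-1), GCGCATGC (NRF1) and AAGATGG (YY1) were in 2.76%, 4.83%, 5.52% and 6.9%, against 2.59%, 3.66%, 4.26% and 6.4%, and each of these 4 background shares lay inside the interval of the peak-bearing windows. Both strands were searched for every motif.

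Read the other way, the bases beside the box went with how often a promoter had a summit. Windows with T before CACGTG on both strands had a summit in 58 of 226, 25.7% (20.1 to 31.9). With T on 1 strand it was 51 of 532, 9.59% (7.22 to 12.4), and with T on neither, 9 of 649, 1.39% (0.636 to 2.62). Windows without CACGTG had one in 27 of 14435, 0.187% (0.123 to 0.272). The intervals of the 4 classes did not overlap. A window with several boxes took the class of the box with the most T flanks. Of windows with a box, 51.7% of those with a summit and 10.7% of all held 2 or more boxes. Flanks and box number were not separated. The median fold of those with a summit was 9.48, 9.55, 8.98 and 6.43 in the same order, so the classes with a box differed in how many promoters had a peak more than in its fold.

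**Figure D2:**
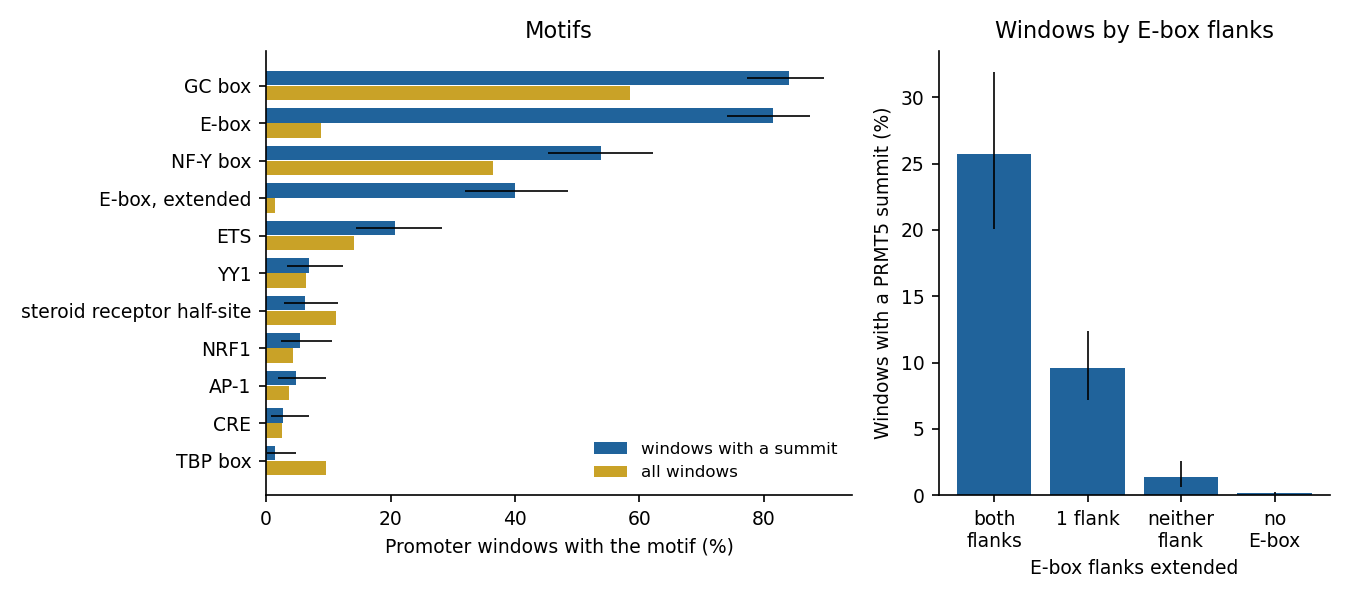
Left, percent of promoter windows holding each of 11 motifs, for the 145 windows with a LNCaP PRMT5 summit (blue, bars are exact 95% intervals) and for all 15842 windows (yellow); "E-box, extended" is the box with its flanking base matched on both strands and "TBP box" the TATA box. Right, percent of windows with a summit by how many flanks of the E-box are extended, falling from 25.7% to 0.187% in windows without a box.

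Summits lay close to the boxes. In the 118 windows with both, the nearest CACGTG was a median of 24 bp from the summit, within 25 bp in 50.8% and within 50 bp in 81.4%. For comparison the median was 44.5 bp to the nearest CCAAT and 38 bp to the nearest GGGCGG, in the windows that hold them. The boxes nearest the summit had a median position of -74.5 bp from the start. Of the 118 windows 61 (51.7%) held 2 or more boxes, and the most was 6, whereas 10.7% of all windows with a box held 2 or more. Counting each box on both strands, T came directly before it in 63.1% of flanks in peak-bearing windows and in 34.9% of flanks in all windows.

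The E-box share was not a feature of the lysosomal genes alone. Of the peak-bearing windows of other genes, 95 of 119 held CACGTG, 79.8% (71.5 to 86.6), beside 23 of 26 for the lysosome and endosome lists, 88.5% (69.8 to 97.6). The intervals overlapped, and the difference was not tested. Over all windows of those lists, with or without a peak, 21.2% held the box. Windows with a summit in both PRMT5 lists held it in 61 of 66, 92.4%, and those with a summit in LNCaP but not in PC3 in 57 of 79, 72.2%.

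At the level of genes, 234 of 15842 protein-coding genes with a listed start had a LNCaP PRMT5 peak within 1 kb of it (1.48%), and 36 peaks counted for 2 or more starts. The 6 lysosome and endosome lists were chosen knowing that lysosomal genes stood near the top of these data. Their counts, folds and PC3 overlaps, here and below, are therefore not independent evidence. In their union, 29 of 208 genes had a start peak, 13.9% (9.54 to 19.4). A further 10 of the 54 list genes without a listed start (18.5%) had a summit within 3 kb of an end, beside 62 of 4195 such genes in all (1.48%). The median fold of the 29 was 10.1, beside 7.57 for the 205 other start genes, some of which share a peak with a list gene, as TRAPPC2L does with GALNS. A fold of at least 10 was reached by 15 of the 29 (51.7%) and by 58 of the 205 (28.3%).

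**Figure D3:**
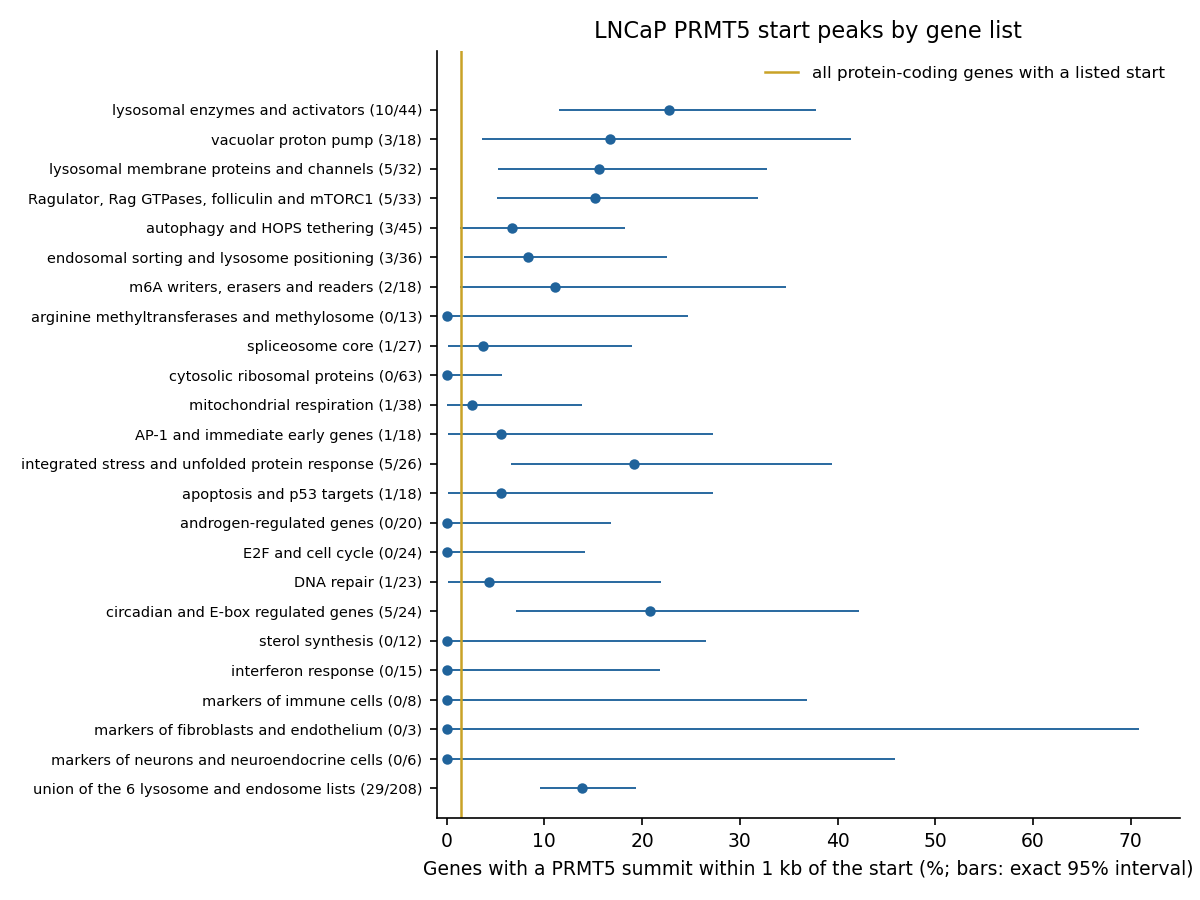
Percent of genes with a LNCaP PRMT5 summit within 1 kb of the start (horizontal axis) for each gene list, with exact 95% intervals and the number of genes with a peak over genes with a listed start in brackets; the yellow line marks 1.48%, the percent over all protein-coding genes. The union of the 6 lysosome and endosome lists stands at 13.9%. Lists such as ribosomal proteins and androgen-regulated genes stand at 0, with intervals that take in 1.48%.

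Lysosomal enzymes and activators had a start peak in 10 of 44 genes, 22.7% (11.5 to 37.8), with folds from 5.71 to 29.8. After GALNS came GRN, the precursor of granulins, and IGF2R, the mannose 6-phosphate receptor that sorts enzymes to the lysosome, both with a fold of 11. The protease CTSA, which also protects other enzymes, had 9.5. The galactosidase GLA had 9.46, the protease cathepsin D (CTSD) 7.96, the glucosidase GAA 7.4 and the sialidase NEU1 6.92. GNPTG and TPP1 also had a start peak. The PC3 list had a start peak at 7 of the 10, at GALNS 10.8, NEU1 10.4, GRN 10.1, GLA 5.64, GNPTG 5.11, GAA 3.97 and CTSA 3.04. HEXA, a hexosaminidase subunit without a listed start, had a peak of fold 15.7 at 92 bp from a gene end.

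The acidifying pump and the membrane proteins followed. In the vacuolar proton pump 3 of 18 genes had a start peak (16.7%, 3.58 to 41.4): ATP6V1G1, ATP6V0D1 and ATP6V0B, which had a fold of 8.14. Among lysosomal membrane proteins and channels 5 of 32 did (15.6%). CLN3, whose loss causes a juvenile storage disease of neurons, had 12.7, the chloride exchanger CLCN7 7.9, and LAMP1, the abundant structural glycoprotein, 6.58 with its summit 499 bp inside the gene. A lower LAMP1 peak, of fold 5.06, had its summit inside the promoter window, which held CACGTG. LAMP1 was the member of this list with the higher PC3 fold, 16.5. PIP4P1, a phosphoinositide phosphatase without a listed start, had the second highest peak of the whole list, 60.8, at 298 bp from a gene end, and its PC3 fold was 10.4.

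The nutrient-sensing surface of the lysosome was represented by 5 of 33 genes (15.2%). Besides LAMTOR1 and RRAGC they were FNIP1, a folliculin partner (10.3), the Rag GTPase RRAGB (7.56) and the Ragulator subunit LAMTOR4 (6.99). RRAGB and LAMTOR4 had no PC3 PRMT5 peak at the start. AKT1S1, an inhibitor within mTORC1, and MLST8, a subunit of it, had peaks of fold 9 and 5.09 at 843 and 1594 bp from a gene end.

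Autophagy and endosomal sorting genes had 3 start peaks each, and the intervals of their shares overlapped those of the lists above. In autophagy and HOPS tethering 3 of 45 genes had a start peak (6.67%, 1.4 to 18.3): GABARAP, an ATG8 protein (11.6), WIPI1, which binds phosphoinositides on the forming autophagosome (10.1), and VPS11, a HOPS subunit (8.62). In endosomal sorting and lysosome positioning 3 of 36 did (8.33%, 1.75 to 22.5): WASHC2C, BLOC1S1 (11.3) and BLOC1S3 (8.03), the last pair from the BLOC complexes that build and position lysosome-related organelles. UVRAG, VPS33A, VPS26A and WASHC2A had end peaks of fold 8.55, 5.37, 6.33 and 14, and ATP6V1C1 had one of 7.85.

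Taking the highest peak of each gene, the summit was upstream of the start at 25 of the 29 genes, and the median position was -98 bp. Of the 29 genes 20 also had a PC3 PRMT5 start peak, and the PC3 fold was the higher at 4 of them, NEU1, LAMP1, WASHC2C and BLOC1S3. Folds were set by different controls and depths in the 2 lines, so their order was not tested. The 29 start peaks overlapped a PC3 PRMT5 peak in 69%, beside 42.4% for the other start genes. Of the 26 genes with a summit inside the promoter window, LAMP1 by its lower peak, 23 had CACGTG there, and GLA, GRN and TPP1 did not. GLA shared its peak with its neighbour HNRNPH2, whose window held a box 11.5 bp from the summit. The summits at GABARAP, WIPI1 and GNPTG lay outside the window, so the sequence at these summits was not searched. The WIPI1 and GNPTG peaks reached into their windows. The GNPTG window held TCACGTGA, and the WIPI1 window held no CACGTG.

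Outside the lysosome, stress and clock genes held the larger shares, beside 1.48% of all protein-coding genes with a listed start. These lists too were chosen with earlier results of these data known, so their counts are not independent evidence. Of the genes of the integrated stress and unfolded protein responses 5 of 26 had a start peak (19.2%, 6.55 to 39.4). Among them were CALR, a chaperone of the endoplasmic reticulum (10.6), DNAJB9, a co-chaperone of the same compartment (8.25), and the stress factor DDIT3 (7.09). Of circadian and E-box regulated genes 5 of 24 had a start peak (20.8%, 7.13 to 42.2), led by PER3 (14.1), CIART (11.3) and TEF (6.44). None of these 5 had a PC3 PRMT5 start peak. The E-box was in the window of 3 of these 5 and of 2 of the 5 stress genes, and the PER3 summit lay outside its window. These counts are small, and their intervals are wide.

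Each of the other lists had at most 2 genes with a start peak. None of the 13 arginine methyltransferase and methylosome genes had one, PRMT5 and WDR77 included. Among the genes that write, erase or read N6-methyladenosine, RBM15 and the reader YTHDF1 (7.85) did, 2 of 18 (11.1%, 1.38 to 34.7), and METTL3 did not. Of the spliceosome core 1 of 27 did, SNRPA, a protein of the U1 particle, with a fold of 2.98 in LNCaP and 26.2 in PC3. The count was 0 of 63 for cytosolic ribosomal proteins, 1 of 38 for mitochondrial respiration (ATP5MC1, 11), 1 of 23 for DNA repair (RPA1, 6.43), 1 of 18 for AP-1 and immediate early genes (DUSP1, 3.11) and 1 of 18 for apoptosis and p53 targets (BAX). It was 0 of 24 for E2F and cell cycle, 0 of 12 for sterol synthesis and 0 of 15 for the interferon response. Beside the 1.48% of all genes, counts of 0 or 1 do not set lists of this size apart. The interval of the N6-methyladenosine list also takes in 1.48%.

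Androgen-regulated genes and markers of other cell types had no start peak, in 0 of 20, and in 0 of 8 for immune cells, 0 of 3 for fibroblasts and endothelium and 0 of 6 for neurons and neuroendocrine cells. The interval for the 20 androgen-regulated genes reached 16.8%. Beside the 1.48% of all genes, counts of 0 do not set lists this small apart. KLK3, which encodes prostate-specific antigen, had its nearest summit 36 kb away, in the peak on chromosome 19 at positions 50896658 to 50897064, which had a fold of 16.7 and lay 9.55 kb from KLK4. The nearest summits to TMPRSS2 and MYC were 1449 and 6902 kb away.

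Away from listed starts, 343 peaks lay inside protein-coding genes, 35% (32 to 38.1), where gene bodies make up 40.9% of the span, and 427 lay between genes, 43.6% (40.4 to 46.7). Both counts include peaks by a boundary of a gene without a listed start, which may be a start. Without those, 319 (32.6%) lay inside genes and 393 (40.1%) between genes. The 10 highest peaks away from starts had folds of up to 60.8. Of these, 5 lay between 172 and 317 bp from an end of a gene without a listed start, among them PIP4P1, GET4, which helps insert tail-anchored membrane proteins (45.5), ADNP2 (26.6) and HOXC13, a homeobox gene (24.5). Another, of fold 38.5, lay inside TSPEAR and had no PC3 PRMT5 overlap. The others were at the tip of chromosome 4 by DUX4 (30.8), 63.4 kb upstream of ARHGEF7 (25.9), 23.7 kb upstream of YPEL2 (24.6) and 17.3 kb from the start of CD300LB (22.3).

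**Figure D4:**
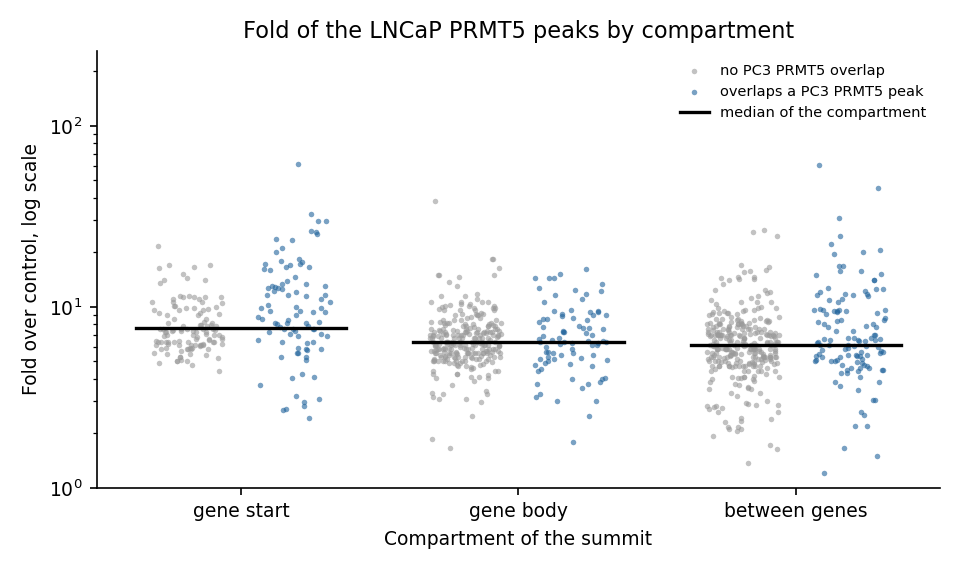
Fold over control of each LNCaP PRMT5 peak (vertical axis, log scale) at gene starts, inside genes and between genes, split into peaks without (grey) and with (blue) a PC3 PRMT5 overlap; black lines are the medians of 7.67, 6.43 and 6.14. The blue points make up 43.8% of start peaks, 24.5% of peaks inside genes and 28.6% of those between genes.

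Chromosome ends formed another concentration. Within 1 Mb of an end, taken as the first base or the last annotated gene or listed peak, lay 161 peaks, 16.4% (14.2 to 18.9), in 1.55% of the span. Of these, 6 were at a gene start. Within 20 kb of an end lay 29 peaks on 19 chromosomes, with folds from 4.92 to 30.8 and a median of 9.62. A PC3 PRMT5 peak overlapped 28 of them (96.6%), beside 30.4% of all 980 peaks. A LNCaP METTL3 peak overlapped 3 of them (10.3%), beside 7.45% of all 980. Of the 29, 12 lay at the first-base end, and 11 of these overlapped a PC3 PRMT5 peak. The other 17 lay at far ends that were themselves set by the outermost listed peak, in 2 cases by the peak counted, so their closeness to the end is partly fixed by the definition. Such ends hold repeated sequence, where a short read can match several places, and the sources used here do not say how such reads were treated.

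Peaks also came in groups. With gaps of at most 10 kb, 28 clusters of 3 or more peaks took in 141 peaks (14.4%), and 21 of the clusters held no start peak. The largest, of 14 peaks, lay at chromosome 7, positions 865437 to 887594, by GET4, and 11 of its peaks overlapped a PC3 PRMT5 peak. A cluster of 11 peaks lay on chromosome Y and one of 10 on chromosome X at positions 115843521 to 115887599, where 0 overlapped a PC3 PRMT5 peak. A cluster of 8 peaks at CDK4, a cell cycle kinase gene, had 4 at starts and 7 with a PC3 overlap, and one of 8 at TSPEAR had 0. By chromosome the density per length was highest on chromosome 19, with 79 peaks, 1.35 per Mb, of which 43% were at starts. Per 100 protein-coding genes chromosome 19 had 5.44 peaks, chromosome 21 had 16.3 and chromosome Y 28.6, and 1 of the 39 peaks on chromosome 21 was at a start. The cluster on chromosome Y, with a median fold of 4.4, held 11 of its 18 peaks. On chromosome 21, clusters of 5 peaks each lay at positions 8222454 to 8242372 and 8449636 to 8469922, with folds up to 4.46 and 4.43. Repeats at these places were not checked, and how reads that match several places were treated is not known. No starts were used for the 715 protein-coding genes of chromosome 8, so its 35 peaks count as 0 at starts.

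How often a LNCaP PRMT5 peak was found again in PC3 differed by compartment. Over all 980 peaks the share was 30.4% (27.5 to 33.4). A PC3 PRMT5 peak overlapped 92 of the 210 start peaks, 43.8% (37 to 50.8), 84 of the 343 inside genes, 24.5% (20 to 29.4), and 122 of the 427 between genes, 28.6% (24.3 to 33.1). The share was 56.9% (43.2 to 69.8) for the 58 peaks by a boundary of a gene without a listed start and 49.7% (41.7 to 57.7) for the 161 within 1 Mb of a chromosome end, sets that cut across these compartments, and both intervals overlapped that of start peaks. The 2 lists share the antibody and neither library nor control. Overlap with LNCaP METTL3, a list of 173 peaks called against the same control library, ran the other way. It was 1 of 210 at starts, 0.476% (0.0121 to 2.62), and 27 of 343 inside genes, 7.87% (5.25 to 11.2). Between genes it was 45 of 427, 10.5% (7.79 to 13.8), and over all peaks 73 of 980, 7.45% (5.88 to 9.28). Of the 173 METTL3 peaks 5 lay within 1 kb of a start, so few start peaks could overlap one. Because the LNCaP control is shared, what the control adds to the overlap cannot be told apart from what the antibodies add. The share of a list within 1 kb of a start was 21.4% for LNCaP PRMT5, 10.7% (9.27 to 12.3) for PC3 PRMT5, 2.89% (0.945 to 6.62) for LNCaP METTL3 and 0.966% for PC3 METTL3.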

How the data were processed

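In LNCaP and PC3, PRMT5, METTL3 and a control were profiled, 1 library per group. The submitters' processing notes name MACS2 2.1.0, Bowtie 1.1.1, Trimmomatic 0.33, ChIPseeker, bcl2fastq 2.17 and the build hg38. The sources used here do not give their settings or how duplicates and cut sites were handled. The authors deposited a peak list per antibody and line with a score, a fold (ratio over control), −log10 p, −log10 q and a summit. The deposited score was 10 times the −log10 q within 1 unit. These values are the authors' own and were used here for ranks, descriptions and filters inside 1 list at a time. Depth is unknown.

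Peaks on chromosomes 1 to 22, X and Y were placed against RefSeq GRCh38.p14 genes. Start and strand came from the promoter table, for 15842 protein-coding genes; for the other 4195, either gene end within 3 kb was used. Overlap meant at least 1 bp. Motifs were searched in windows of 250 bases before to 50 after the start. Of 711 names in 23 gene lists, 710 matched. Named were the 25 highest start peaks, list members with a start peak (up to 8 per lysosome or endosome list, 3 per other list), 6 fixed genes and the 10 highest peaks away from starts; a few of these are not reported here. Members and lists were chosen with earlier results of these data known. Python 3.11.15, pandas 2.3.3, numpy 2.4.6, scipy 1.17.1 and matplotlib 3.10.9 were used, and the procedures were tested on simulated data. Other settings tried were stricter q and fold thresholds, other windows and overlaps, and leaving out chromosome ends.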

Additional observations from a re-analysis of the deposited data

Results flagged for a closer look

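The LNCaP PRMT5 list holds 104 entries outside chromosomes 1 to 22, X and Y, which no comparison above uses. They lie on 20 sequences, and 8 of them are on the mitochondrial genome. Their folds run from 1.41 to 11.3 with a median of 3.86, beside 6.56 for the 980 peaks described. They drew attention as signal in data that were not analysed.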

How the results depend on the processing

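Of 39 alternative settings over 8 results, 28 left the value inside the interval of the main value, or within 1.5 times it for a count of genes, and 11 moved it further; 3 of the settings were added after seeing the data. The share of peaks at gene starts, 21.4%, was 24.3% at a fold of at least 5, 18.1% with a 500 bp window, 25.5% with a 3 kb window, 24.9% without chromosome ends and 27.3% when ends of genes without a listed start were added. The share between genes, 43.6%, was 39.9% at a fold of at least 5. The share of peak-bearing promoters with CACGTG, 81.4%, was 68.8% over 189 windows when any overlap of peak and window counted. The share near chromosome ends, 16.4%, was 9.29% within 500 kb. The overlap with PC3 PRMT5, 30.4%, was 33.6% at a −log10 q of at least 3, 26.6% without chromosome ends and 20% when the overlap had to cover 50% or more of each peak. The count of genes with a start peak ranged from 197 to 270, and that of lysosome and endosome list genes from 25 to 29. No paired analysis was possible because every group has 1 library. Unknown depth limits any reading of how many peaks a list holds, and a place without a peak may have been below detection.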
